A study of Rattus norvegicus with 4 samples.

Results

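The developmental and nuclear receptor transcription factors described here are the probes of a rat expression array whose single platform symbol names a POU, LIM homeodomain, SOX, GATA, PAX, HOX, T-box, RUNX, KLF, FOX, Meis or Pbx factor, a Neurod, Hes or Id protein, or a nuclear receptor with an Nr symbol. A few symbols of these families were left out by the choice and are not analysed here, so statements on a family cover its members read. The choice matched 182 of the 16677 probes with 1 symbol, on an array of 35126 probes, and 165 of them, for 115 of the 11039 genes read in all, could be read. The other 17 lie in a stretch of the array whose names could not be tied to values, among them those of Sox2, Sox9, Pax6 and Nr2f2, which are not analysed here. Foxred1, Nr2c2ap, Hoxb5os and Hoxa11-as carry matching symbols but encode a mitochondrial oxidoreductase-like protein, a receptor-associated protein and 2 antisense RNAs, not factors.

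Rat vestibular ganglion neurons stained or not stained for calretinin, which binds calcium, were cut out with a laser and pooled for RNA. The submitters' design text gives the stained cells as afferents ending in calyces on hair cells and the unstained ones as bouton and dimorphic afferents. Each group had 2 arrays of total RNA in 1 colour (Cy5), and titles decided the group. The negative samples' description fields carry the positive cells' text, so the groups are called labelled positive and labelled negative. The labels name no treatment, strain, age or number of animals or pools. Whether the 2 arrays of a group came from separate pools is not stated, so a p-value speaks only of array spread, possibly technical. Captured cells are bulk samples here, in which fewer cells of a type and less RNA per cell cannot be told apart.

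Values are intensities on the deposited linear scale, on which the array medians were 0.99. Calb2, the calretinin gene used to choose the cells, read 291 and 328 on the arrays labelled positive and 138 and 129 on those labelled negative, so its direction went with the titles, but the arrays labelled negative did not lack the transcript. Neuronal markers were present in both groups, with a summed intensity over the 8 read of 399.1 to 410.5 against 387.8 to 390.8. Single neuronal genes differed, with 4 of 7 tested higher and 2 lower (2 and 2 after either normalization). The neurofilament genes Nefh and Nefm were 3.08-fold and 1.49-fold higher in the arrays labelled positive, whereas Prph (peripherin) was 2.02-fold and Elavl4 1.85-fold lower. Snap25 was too dim to be tested (a mean log2 intensity under the 40th percentile of the array, an intensity of 0.456, called the limit). Markers of other cells also differed. The summed level of 12 endothelial and mural markers was 36.8 to 37.5 in the arrays labelled positive and 100.9 to 106 in those labelled negative, and 8 of 9 tested were lower. For 8 Schwann and satellite glia markers it was 265.8 to 282.5 against 367.4 to 378.8, with 5 of 6 tested lower and 1 higher, and for 5 astrocyte markers 123.5 to 136.1 against 241.9 to 243, with 3 of 4 lower. Slc1a3 (121 and 134 against 149.9 and 143.8) made up most of that sum, and single genes differed far more. Gfap, an astrocyte filament gene, had 1.10 and 0.991 against 42.8 and 46.2 and was 42.7-fold lower, and Aqp4 had 0.344 and 0.603 against 48.4 and 51.7, with the arrays labelled positive below the limit. For 7 oligodendrocyte markers the sum was 202.5 to 206.1 against 331.8 to 339.4, with 3 of 5 lower. Cldn11, which did not pass, carried much of it (187 and 182 against 200.5 and 188), while the myelin genes Mog (0.985 and 1.01 against 42.0 and 43.8) and Mobp (1.79 and 2.01 against 75.7 and 77.5) were 42.9-fold and 40.3-fold lower. The summed level was, for 9 blood and immune markers, 92.46 to 96.35 against 157.7 to 167.4, with 3 of 6 lower and 2 higher. Csf1r (48.0 and 52.5 against 109.3 and 120.9) made up most of that sum. Those higher were Cd68 (1.35-fold) and Ptprc (1.28-fold, a call lost with either normalization). For 8 hair cell and inner ear epithelium markers the summed level was 33.9 to 34.4 against 49.8 to 52.7, with 4 of 5 lower. Otog (24.7 and 24.1 against 36.8 and 34.1) made up most of that sum. Cdh23 and Tecta, among the lower ones, were below the limit in the arrays labelled positive. The 10 fibroblast and meningeal markers went the other way, at 864.7 to 880.2 against 601.7 to 688.9, with 5 of 9 higher and 2 lower. Ptgds (605 and 623 against 448 and 525) made up most of that sum. Its log2 change was 0.34 as deposited and 0.02, without a call, after loess normalization. Msln, among the higher markers, was below the limit in the arrays labelled negative (2.42 and 2.61 against 0.463 and 0.428). Tie1, Mag and Ermn were the markers listed at or below 0 on an array labelled positive, and no marker was on an array labelled negative. The part of these cells in the results below was not tested except where a value is given.

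Transcription factors of these families bind DNA through a homeodomain, HMG box, zinc finger, forkhead or related domain and set which genes a cell type can use. In sensory ganglia, POU, LIM homeodomain, GATA, Neurod and RUNX factors act in succession to form neurons and divide them into classes, while SOX and Hes factors hold progenitors and glia. Nuclear receptors differ in that many are switched by small lipophilic ligands such as steroids, bile acids and oxysterols.

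Of the 9 genes with a probe called at least 2-fold different, 6 had an entry in the RefSeq promoter table (build GRCr8), and the 250 bases before the start of 4 of them are shown. Meis1, Gata2 and Foxc1 had the largest changes of the 6, and Foxo4 is shown because its window alone held a match to a motif searched. Meis1, Gata2 and Foxo4 were lower and Foxc1 was higher in the arrays labelled positive. They lie at chr14:97495084-97495333 (minus strand), chr4:122216031-122216280 (plus strand), chrX:70425313-70425562 (plus strand) and chr17:32844101-32844350 (minus strand). Each is given 5′ to 3′ on the gene's strand, and capitals mark a match, on either strand, to 1 of 5 short motifs that these families are known to bind. For the zinc finger family of Gata2 the letters searched were AGATAA, and for SOX proteins they were AACAAT. Meis proteins were given TGACAG, forkhead proteins were given GTAAACA, and nuclear receptors were given AGGTCA.
Meis1: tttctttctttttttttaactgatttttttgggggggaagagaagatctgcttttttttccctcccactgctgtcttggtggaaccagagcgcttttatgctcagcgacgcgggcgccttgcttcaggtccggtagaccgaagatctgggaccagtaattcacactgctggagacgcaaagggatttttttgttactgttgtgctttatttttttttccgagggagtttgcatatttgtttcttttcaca
Gata2: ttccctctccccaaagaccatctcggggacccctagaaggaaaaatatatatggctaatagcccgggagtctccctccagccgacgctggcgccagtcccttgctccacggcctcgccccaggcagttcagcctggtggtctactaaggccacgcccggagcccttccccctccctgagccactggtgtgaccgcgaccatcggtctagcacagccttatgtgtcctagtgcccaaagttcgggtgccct
Foxo4: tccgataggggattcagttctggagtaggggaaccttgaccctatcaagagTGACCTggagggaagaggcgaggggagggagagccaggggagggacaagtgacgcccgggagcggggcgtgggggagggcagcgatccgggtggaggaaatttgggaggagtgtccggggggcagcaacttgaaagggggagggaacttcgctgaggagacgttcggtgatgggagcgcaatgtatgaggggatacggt
Foxc1: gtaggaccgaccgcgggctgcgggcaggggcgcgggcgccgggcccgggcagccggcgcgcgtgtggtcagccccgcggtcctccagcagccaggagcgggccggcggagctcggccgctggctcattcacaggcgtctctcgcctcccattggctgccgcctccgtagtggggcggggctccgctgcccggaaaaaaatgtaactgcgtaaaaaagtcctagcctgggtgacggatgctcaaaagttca

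The windows of Meis1, Gata2 and Foxc1 held none of these letters, and nor did those of Sox13 and Tbx18, the other 2 listed genes. Foxo4 held 1 nuclear receptor motif, printed as its reverse complement, from 199 to 194 bases before the start. Of 33469 upstream windows of this length in the table, 10.3% held the GATA motif, 10.3% the SOX motif, 15.8% the MEIS motif, 3.21% the FOX motif and 14.1% the nuclear receptor motif. Among 90 windows of 85 factor genes the shares were 3.33%, 8.89%, 17.8%, 3.33% and 10.0%. A match describes these letters and is no evidence of binding.

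Many factor probes were dim. A probe was tested where its mean log2 intensity reached the 40th percentile of the array, an intensity of 0.456, and 81 of the 165 factor probes (49.1%), for 65 genes, did so. Over all single-symbol probes that could be read, 66.6% did. The FOX (21 of 35), KLF (16 of 21), nuclear receptor (13 of 24) and Meis and Pbx (5 of 6) probes supplied most of those tested, while 2 of 11 HOX, 2 of 9 T-box, 2 of 5 PAX, 1 of 6 LIM homeodomain and 1 of 4 RUNX probes passed. A probe's brightness depends on its sequence and its distance from the end of the transcript as well as on RNA, so a dim probe does not show that a factor is absent.

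**Figure D1:**
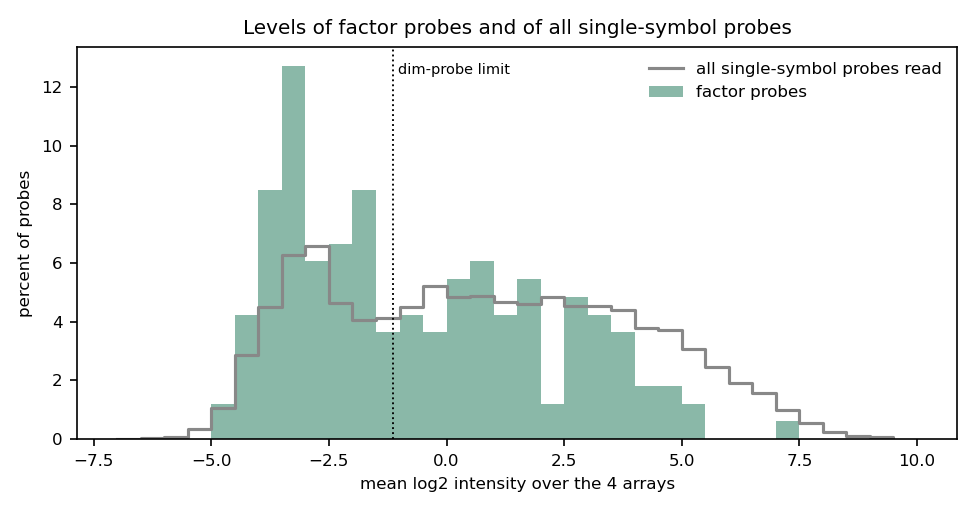
Distribution of the mean log2 intensity over the 4 arrays for 165 factor probes (bars, percent of probes) and for all single-symbol probes that could be read (line). The dotted line is the limit under which probes were not tested. It leaves 49.1% of factor probes and 66.6% of all single-symbol probes tested, and the highest bar, at 12.7% of factor probes, lies below the limit, where the line is at 6.29%.

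Several classical factors of sensory ganglion development fell below the limit in every array. Pou4f1, the Brn3a gene of early sensory neurons, had 0.278 and 0.355 in the arrays labelled positive and 0.307 and 0.335 in those labelled negative. Neurod1, which vestibular and cochlear neurons need to survive during development, stayed between 0.0258 and 0.163 over 2 probes, and Neurod2 between 0.0071 and 0.174. Isl2, a LIM homeodomain gene, had 0.388 and 0.288 against 0.199 and 0.190, and Runx3, a factor of proprioceptive neurons, 0.0891 and 0.0828 against 0.153 and 0.0773. Tbx3, Pax8, Hes5, Id4, Meis2 and Nr2f1 were likewise below the limit in both groups on each probe read. The groups overlapped for Pou4f1, Neurod2, Runx3 and 1 Neurod1 probe. They did not for Isl2 or the other Neurod1 probe (0.0930 and 0.163 against 0.0868 and 0.0258), at a level that was not tested.

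Of the 81 tested factor probes, 54 were called at an adjusted p under 0.05, a share of 66.7% that lies near the 64.2% of all 21070 probes tested. By direction, 25 factor probes were higher in the arrays labelled positive and 29 lower, where 40.6% of all tested probes were higher and 23.6% lower. Of the factor probes this was 30.9% and 35.8%. The median log2 change of the tested factor probes was -0.10, against 0.11 for all tested probes. The called probes belonged to 45 genes, and in each of the 54 the groups did not overlap. Over all tested probes, called or not, groups did not overlap for 68 of 81 factor probes and for 81.7% of the array. Names of probes in the late part of the array are read 5 table rows further on, as repeated control probes require (r = 0.936 across 54 pairs there, and 0.116 at their own row). At least 2-fold differences were found for 10 factor probes (12.3%), 4 higher and 6 lower, where the whole array had 15.3%, 8.28% higher and 7.07% lower. Of the 10, the 6 of Meis1, Nr1h4, Foxc1, Sox13, Sox5 and Tbx18 were read at their own row and the 4 of Foxp2, Gata2 and Foxo4 further on. The middle of the absolute log2 change, 0.39, was the same for factors and for all tested probes to 2 decimals.

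The direction of small changes depended on scaling. With quantile normalization of the arrays 21 factor probes were higher and 33 lower, and with cyclic loess 20 were higher and 36 lower. The median log2 change of the factor probes became -0.10 and -0.16, and that of all tested probes 0.01 and -0.01. Higher probes made up 46.3% of factor calls as deposited, 38.9% with quantile and 35.7% with loess normalization. For all tested probes these shares were 63.3%, 53.5% and 49.6%. The share of higher calls was therefore lower among factor probes than on the whole array under each scaling, by counts that were not tested against each other.

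**Figure D2:**
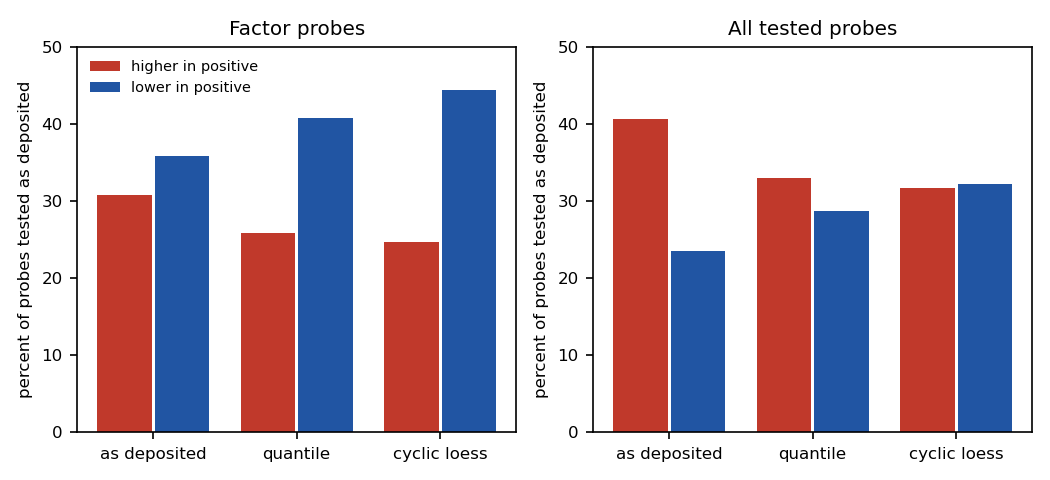
Percent of probes called higher (red) or lower (blue) in the arrays labelled positive, for the 81 tested factor probes (left) and all 21070 tested probes (right), with values as deposited and after quantile or cyclic loess normalization. Factor probes had 25, 21 and 20 higher calls and 29, 33 and 36 lower calls in that order.

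**Figure D3:**
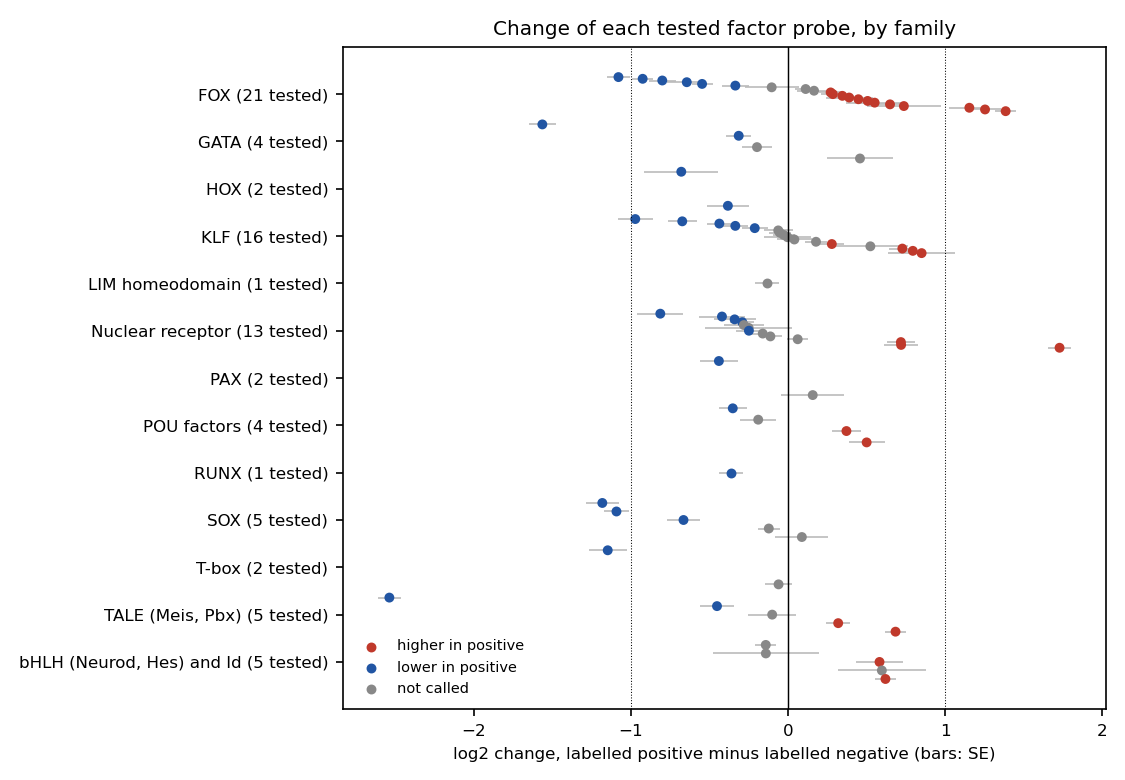
Log2 change of each of the 81 tested factor probes, arrays labelled positive minus labelled negative, by family, with SE. Dotted lines mark 2-fold changes. No SOX, GATA, HOX, PAX, RUNX, T-box or LIM homeodomain probe was called higher, and the FOX, KLF and nuclear receptor probes spread to both sides. The families without a higher call had 1 to 5 tested probes each, and 40.6% of all tested probes were higher.

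Of the 25 higher calls 12 were of FOX symbols, Foxred1 among them, and 6 of the 21 tested FOX probes were lower (9 higher and 6 lower after either normalization). These are counts of probes, and Foxc1, Foxn3 and Foxp2 each supplied 2 of the higher calls. Foxk1, Foxm1 and Foxp4 each had 1 probe called higher and a brighter probe called lower. As deposited, 57.1% of tested FOX probes were higher and 28.6% lower, against 40.6% and 23.6% of all tested probes. Foxp2, a regulator of neurons best known from vocal and motor circuits, had 10.12 and 10.42 on its brighter probe in the arrays labelled positive and 3.83 and 4.04 in those labelled negative. Its second tested probe gave 2.25 and 2.67 against 1.004 and 1.21. Both probes separated the groups in the same direction, by 2.61-fold (log2 change 1.39 ± 0.07 SE, adjusted p = 2.31e-07) and 2.23-fold (1.15 ± 0.13, adjusted p = 3.74e-05). Foxp1, its close relative, had 14.98 and 15.99 against 11.04 and 10.74, a 1.42-fold difference (adjusted p = 0.000131).

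Foxc1, a forkhead gene of head mesenchyme, meninges and vessel-associated cells, had 23.8 and 19.7 in the arrays labelled positive against 9.73 and 8.48. That is a 2.39-fold difference (log2 change 1.25 ± 0.10 SE, adjusted p = 4.51e-06). A dimmer probe of the gene gave 0.862 and 1.002 against 0.573 and 0.701 in the same direction (adjusted p = 0.0254), and a further probe lay below the limit in both groups. The summed fibroblast and meningeal markers, most of them Ptgds, were also higher in these arrays (864.7 to 880.2 against 601.7 to 688.9). Of 9 tested 5 were higher, while Dcn (1.96-fold) and Col1a1 (1.18-fold) were lower. The endothelial and mural markers were lower in sum (36.8 to 37.5 against 100.9 to 106). The part of all these markers in the Foxc1 difference was not tested. Foxk2 (12.3 ± 1.63 against 7.78 ± 0.399, SD, n = 2) was also higher. Foxn3 was called higher on 2 probes by log2 changes of 0.35 and 0.27, and Foxred1 by 0.29, and these 3 calls were lost with quantile and with loess normalization.

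The FOXO genes, whose products leave the nucleus under insulin and growth factor signalling, were not uniform. Foxo4 had 2.58 and 2.53 in the arrays labelled positive and 5.43 and 5.36 in those labelled negative, and was 2.11-fold lower (log2 change -1.08 ± 0.07 SE, adjusted p = 1.27e-06). Foxo1 had 1.81 and 1.95 against 3.37 and 3.18 (log2 change -0.80, adjusted p = 2.87e-05). The brightest Foxo3 probe had 28.0 and 27.0 against 25.3 and 25.6, a log2 change of 0.11 ± 0.06 that did not pass (adjusted p = 0.156) and was -0.11 with quantile and -0.10 with loess normalization. Foxa3, a forkhead gene of the gut and liver, had 4.42 and 4.33 against 8.32 and 8.30 and fell by 0.93 on the log2 scale (adjusted p = 2.18e-06).

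The lowest log2 change among the factors was that of Meis1, a homeodomain protein of the TALE class that binds DNA together with Pbx and HOX proteins. Its single probe had 1.43 and 1.47 in the arrays labelled positive and 8.17 and 8.65 in those labelled negative. The groups lay far apart relative to their spread, with means of 1.45 ± 0.0301 and 8.41 ± 0.339 (SD, n = 2). Meis1 was 5.81-fold lower in the arrays labelled positive (log2 change -2.54 ± 0.08 SE, adjusted p = 1.14e-08), and its log2 change was -2.59 with quantile and -2.63 with loess normalization. Its partner Pbx3 moved the other way, with 38.6 and 40.3 against 24.9 and 24.1, or 1.61-fold higher (adjusted p = 1.50e-05). Pbx2 gave opposite calls on its 2 probes, and Pbx4 (1.04 ± 0.176 against 1.11 ± 0.00778) did not pass.

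**Figure D4:**
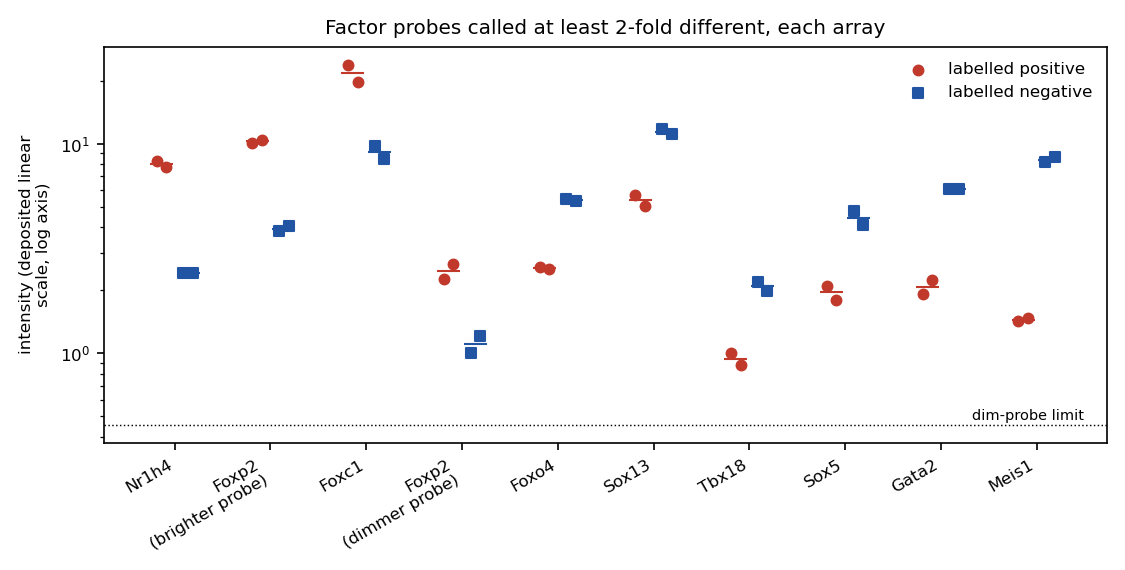
Intensity on each of the 4 arrays (log axis) of the 10 factor probes called at least 2-fold different, with group means as lines. Circles are arrays labelled positive and squares arrays labelled negative. The 4 probes on the left, of Nr1h4, Foxp2 and Foxc1, are higher in the arrays labelled positive, and the 6 on the right, from Foxo4 to Meis1, lower, with no overlap.

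POU factors and the LIM homeodomain genes gave few measurable probes. Pou4f2, the Brn3b gene of retinal ganglion cells and some sensory neurons, had 2.91 and 2.55 against 2.07 and 2.14, 1.29-fold higher in the arrays labelled positive (adjusted p = 0.00605). Pou3f3 had 1.62 and 1.69 against 1.10 and 1.24 (adjusted p = 0.00355), and Pou2f1, a widely expressed octamer-binding factor, fell by 0.35 on the log2 scale (adjusted p = 0.00612). Of the LIM homeodomain genes, Lhx9 had 3.23 and 3.41 against 3.74 and 3.55, which did not pass (log2 change -0.13, adjusted p = 0.154) but was called lower with loess normalization. Isl1 is not among the probes read.

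No tested SOX probe was called higher in the arrays labelled positive, and 3 of 5 were lower (4 with either normalization, which added Sox12). Over all tested probes 40.6% were higher and 23.6% lower. Sox13 and Sox5 belong to the SOXD group, whose proteins lack a transactivation domain of their own and modulate other SOX factors. Sox13 had 5.71 and 5.05 against 11.7 and 11.2, and was 2.13-fold lower (log2 change -1.09 ± 0.08 SE, adjusted p = 2.19e-06). Sox5 had 2.11 and 1.80 against 4.79 and 4.09, 2.27-fold lower (log2 change -1.18 ± 0.11, adjusted p = 8.86e-06). Sox17, a factor of endothelium and endoderm, had 1.39 and 1.23 against 2.12 and 2.03 (log2 change -0.66, adjusted p = 0.00038). Sox12 had 10.5 and 10.4 against 11.79 and 10.95, which did not pass (adjusted p = 0.149). The summed markers of Schwann and satellite glia (265.8 to 282.5 against 367.4 to 378.8) and of endothelium and mural cells (36.8 to 37.5 against 100.9 to 106) were lower in the same arrays. Single glial genes ranged from Lgi4, 28.3-fold lower, to Apoe, a large part of the glial sum, 1.71-fold higher. The part of these markers in the SOX values was not tested.

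Among the GATA zinc finger genes, Gata2, a factor of blood and endothelial cells and of some neurons, had 1.91 and 2.23 in the arrays labelled positive and 6.10 on both arrays labelled negative. It was 2.96-fold lower (log2 change -1.56 ± 0.09 SE, adjusted p = 4.70e-07). Another Gata2 probe was below the limit in both groups (0.134 and 0.115 against 0.104 and 0.148). Of 9 tested endothelial and mural markers 8 were lower too, with log2 changes from -2.26 (Vwf) to -0.19 (Flt1), and Rgs5 did not pass. The part of these markers was not tested. Gata3, which inner ear and auditory neuron development requires, had 2.67 and 2.41 against 3.12 and 2.71. This did not pass (log2 change -0.20 ± 0.10, adjusted p = 0.103) and was called lower with loess normalization, and without the first array of the positive group (adjusted p = 0.0482) or the second of the negative group (0.0338). Gata4 fell by 0.31 on the log2 scale (adjusted p = 0.0058), and Gata1, the erythroid member, had 0.683 ± 0.0293 against 0.497 ± 0.0197 and did not pass. Runx1, a factor of blood cells and of small-diameter sensory neurons, had 9.24 and 8.07 against 11.1 on both arrays labelled negative, a log2 change of -0.36 ± 0.08 (adjusted p = 0.00271).

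Id proteins have a helix-loop-helix but no DNA-binding region, and hold basic helix-loop-helix factors inactive. Id1 had 11.1 and 11.5 in the arrays labelled positive against 7.37 and 7.31, 1.54-fold higher (log2 change 0.62 ± 0.07 SE, adjusted p = 2.64e-05). Id2 had 2.16 and 2.19 against 1.74 and 1.21, 1.498-fold higher with a wider spread in the arrays labelled negative (adjusted p = 0.00756). Id3 had 9.14 and 8.96 against 9.76 and 10.2 and did not pass (log2 change -0.14, adjusted p = 0.0891), but was called lower with quantile and with loess normalization. The Id genes thus did not share 1 direction. Hes1, a Notch target that represses neuronal genes, had 0.747 and 0.496 against 0.436 and 0.371, with the arrays labelled negative below the limit (adjusted p = 0.0897, and 0.0229 without the second array of the positive group). Neurod4 had 0.375 and 0.812 against 0.555 and 0.667.

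Krüppel-like factor probes went both ways, with 4 higher, 5 lower and 7 not called of 16 tested (3 higher and 6 lower with loess normalization). Klf3 and Klf7 each had 1 probe called higher and 1 called lower, so both genes count on each side. The higher Klf7 probe was below the limit in the arrays labelled negative. Klf6 was called lower on its dimmer probe (log2 change -0.67, adjusted p = 0.000143), and on its brighter probe only with loess normalization. Over all tested probes 40.6% were higher and 23.6% lower. The brighter Klf9 probe, for a gene induced by glucocorticoid and thyroid hormone, had 141 and 135 against 119 and 124. Its log2 change of 0.18 ± 0.07 SE did not pass (adjusted p = 0.0508) and was -0.10 with either normalization. Its dimmer probe had 3.56 and 3.52 against 2.85 and 2.99 and was called higher (log2 change 0.28, adjusted p = 0.00894), also with quantile but not with loess normalization (adjusted p = 0.0528). Klf10, an early target of transforming growth factor beta, had 9.34 and 10.0 against 6.31 and 5.41, 1.66-fold higher (adjusted p = 5.78e-05). Klf4, a factor that limits axon growth in neurons, had 8.06 and 9.20 against 10.4 and 9.60, a log2 change of -0.21 (adjusted p = 0.0465) that lost its call without either the first array of the positive group (adjusted p = 0.291) or the first of the negative group (adjusted p = 0.202). Klf12 fell by 0.34 on the log2 scale (adjusted p = 0.00401), and Klf11, Klf14, Klf15, Klf16 and Klf1 did not pass.

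Nuclear receptors included the highest log2 change among the factors. Nr1h4, the bile acid receptor FXR, had 8.30 and 7.74 in the arrays labelled positive and 2.41 and 2.42 in those labelled negative. It was 3.31-fold higher (log2 change 1.73 ± 0.07 SE, adjusted p = 8.21e-08), and the log2 change was 1.68 with quantile and 1.61 with loess normalization. The oxysterol receptor genes parted, since Nr1h2 (LXR beta) had 2.20 and 1.96 against 1.30 and 1.22 and rose 1.65-fold (adjusted p = 0.000252). Nr1h3 (LXR alpha) had 0.685 and 0.667 against 1.22 and 1.15 and was 1.76-fold lower (adjusted p = 0.000914).

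Of the corticosteroid receptors, Nr3c2, the mineralocorticoid receptor, had 37.9 and 45.2 against 24.1 and 26.3. It was 1.65-fold higher in the arrays labelled positive (log2 change 0.72 ± 0.09 SE, adjusted p = 9.34e-05). Nr3c1, the glucocorticoid receptor, had 1.01 and 1.22 against 1.47 and 1.34 on the tested probe. Its log2 change of -0.34 ± 0.13 was close to the threshold (adjusted p = 0.0477), lost its call without the first array of either group or the second of the negative group, and had adjusted p from 0.0564 to 0.221 there. The clock repressor genes Nr1d1 (12.64 and 12.02 against 13.7 and 15.6, log2 change -0.25, adjusted p = 0.01996) and Nr1d2 (log2 changes of -0.29, adjusted p = 0.0084, and -0.16, adjusted p = 0.0668, on its 2 tested probes) lay lower. The called Nr1d2 probe lost its call without the first array of the negative group (adjusted p = 0.0615), and the other passed without the second (0.0491). The Nr1d1 call was lost without the second array of the positive group (adjusted p = 0.0761) or of the negative group (0.158). Nr4a2, an activity-induced orphan receptor, had 7.79 and 7.83 against 7.52 and 7.45 and did not pass (log2 change 0.06, adjusted p = 0.433).

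HOX, PAX and T-box probes were mostly below the limit. Hoxd1 had 0.427 and 0.638 against 0.778 and 0.898 (log2 change -0.68, adjusted p = 0.0293), and Hoxb5os 0.906 and 0.941 against 1.16 and 1.24 (adjusted p = 0.0281). The Hoxb5os call was lost without either array of the negative group and without the first of the positive group (adjusted p from 0.0518 to 0.127). Pax4 had 1.09 and 1.03 against 1.495 and 1.392 (log2 change -0.44, adjusted p = 0.00905), which was lost without the first array of the negative group (adjusted p = 0.0535). Pax9 did not pass. Tbx18, a T-box gene of mesenchyme and mural cells, gave 1.01 and 0.878 against 2.19 and 1.98 on 1 probe (log2 change -1.15 ± 0.12 SE, adjusted p = 2.54e-05) and 2.58 and 2.47 against 2.74 and 2.53 on a brighter one, which did not pass (adjusted p = 0.561).

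In all, 12 factor probes were below the limit in only 1 group, and they are given here by levels without a fold. A probe of Sox11, a SOX gene of differentiating and regenerating neurons, had 0.114 and 0.0401 in the arrays labelled positive and 1.40 and 1.38 in those labelled negative, and its other probe 0.435 and 0.496 against 0.213 and 0.295. Pou3f1, the Oct6 gene of Schwann cells before myelination, had 0.320 and 0.0440 against 1.27 and 1.20, and Tbx19 0.155 and 0.293 against 0.695 and 0.724. A second Nr4a2 probe had 0.0518 and 0.173 against 0.843 and 0.751, whereas an Nr4a3 probe had 0.684 and 0.677 against 0.137 and 0.0278. The brighter Nr4a3 probe, which was tested, overlapped between the groups (0.376 and 0.576 against 0.570 and 0.537). It did not pass (log2 change -0.25, adjusted p = 0.455). Of the 12, Klf7 and Hes1 were tested, and of the other 10, the probes of Lhx1, Nr4a2, Nr4a3, Pou3f1, Sox11 (its first) and Tbx19 passed only in a fit with no limit on dim probes (adjusted p from 0.000125 to 0.00538).

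Probes of 1 gene did not always give the same answer. Of 42 factor genes with more than 1 probe, 16 had at least 2 tested. Of these 5 gave the same result, 5 a call on 1 probe and none on the other, and 6 opposite calls. Among the 5, Foxc1, Foxn3 and Foxp2 were called higher on both probes, and Foxo3 and Sox12 on neither. Over all 1376 genes with at least 2 tested probes, 44.2% gave the same result, genes without a call included, and 13.9% opposite calls. For the factor genes the shares were 31.2% and 37.5%, and they were not tested against each other. The 6 genes were Foxk1, Foxm1, Foxp4, Klf3, Klf7 and Pbx2, and the dimmer Klf7 probe was below the limit in the arrays labelled negative. The brighter probe was lower in the arrays labelled positive for Foxk1, Foxm1, Foxp4 and Klf7, and higher for Klf3 and Pbx2.

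For Klf3, a repressor, the brighter probe had 6.46 and 5.91 against 3.68 and 3.45 (log2 change 0.79 ± 0.08 SE, adjusted p = 1.60e-05) and the dimmer 1.046 and 1.115 against 2.25 and 1.99 (-0.97 ± 0.11, adjusted p = 4.60e-05). For Klf7, a factor of sensory neuron growth, the brighter had 11.6 and 10.2 against 14.9 and 14.6 (-0.44, adjusted p = 0.000738). Its dimmer probe had 0.818 and 0.734 against 0.421 and 0.439, with the arrays labelled negative below the limit (adjusted p = 0.00603). For Pbx2 the brighter probe had 30.8 and 31.3 against 23.5 and 26.3 (log2 change 0.32, adjusted p = 0.00413), a call lost with quantile and with loess normalization, and the dimmer fell by 0.45 (adjusted p = 0.00435). For Foxm1, a mitotic factor, both probes stood on RefSeq mRNA accessions and gave 0.45 (adjusted p = 0.00353) and -0.64 (adjusted p = 0.00138). For Foxp4 the brighter probe kept its call without any 1 array. The dimmer Foxp4 probe (1.07 and 1.04 against 0.856 and 0.759, adjusted p = 0.0432) lost its call without either array of the positive group or the second of the negative group (adjusted p from 0.0758 to 0.169). The Foxk1 probes lost theirs without the first array of the negative group (brighter, adjusted p = 0.0515) and the second of the positive group (dimmer, 0.173). The gene-level direction of these 6 is therefore not settled. Over the array, 2 probes of 1 symbol had nearly unrelated mean levels (r = 0.0488 across 2418 pairs), and r was 0.298 across 549 pairs designed on RefSeq mRNA accessions. These pairs share arrays and are not independent.

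**Figure D5:**
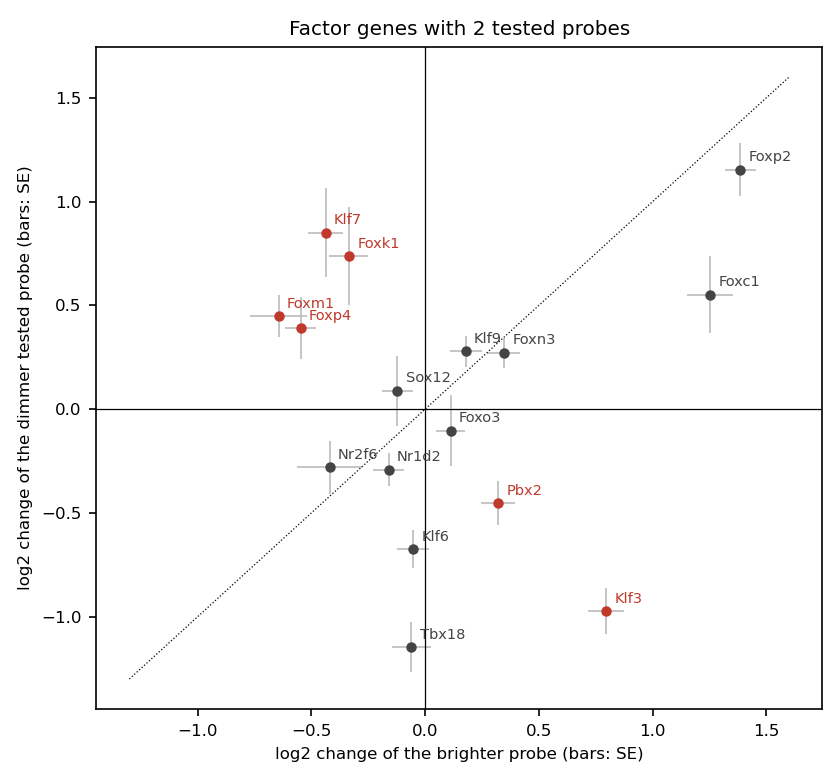
Log2 change of the brighter (horizontal) against the dimmer tested probe (vertical) for the 16 factor genes with 2 tested probes, arrays labelled positive minus labelled negative, with SE. The dotted line marks equal changes. The 6 genes in red have probes called in opposite directions, and Foxp2 and Foxc1 lie in the upper right with both probes higher.

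Genes that work with these factors were counted from 4 lists, with the brightest probe of each gene. Over the 4 lists 25 of 40 tested genes were called, 11 higher and 14 lower, near the 64.2% of all tested probes. Of 9 tested nuclear receptors that have other symbols, 1 was higher and 4 lower, where 40.6% and 23.6% of all tested probes were. Thrb, a thyroid hormone receptor, had 5.32 and 5.68 against 12.9 and 13.2 (log2 change -1.25, adjusted p = 4.11e-07), and Pparg, a fatty acid receptor, fell by 0.92. Rxrg, a retinoid X receptor, was below the limit in the arrays labelled positive, with 0.360 and 0.364 against 1.53 and 1.59, and Vdr, the vitamin D receptor and the member that was higher, was below it in those labelled negative. The median log2 change of the list was -0.40. Of 10 tested nuclear receptor coregulators 4 were higher and 1 lower (3 and 2 with either normalization), among them the coactivator gene Ncoa1 with 97.4 and 99.3 against 69.7 and 63.9.

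Of 9 tested partners of basic helix-loop-helix factors and Notch pathway genes, 1 was higher and 6 lower, with a median log2 change of -0.60 (0.11 for all tested probes, of which 40.6% were higher and 23.6% lower). Notch1 had 1.10 and 1.09 against 3.60 on both arrays labelled negative (log2 change -1.72, adjusted p = 2.57e-07), and its ligand gene Jag1 1.72 and 2.04 against 3.38 and 3.17. Tcf4, an E protein, fell by 1.15, while Tcf12, another E protein and the member that was higher, had 7.72 and 7.46 against 0.195 and 0.132, below the limit in the arrays labelled negative. Tle1, among the lower genes, was below the limit in the arrays labelled positive (0.344 and 0.482 against 0.739 and 0.670). Of 12 tested cofactors of homeodomain, RUNX and GATA factors 5 were higher and 3 lower, but 2 and 4 with either normalization. Eya2, a transcriptional coactivator and phosphatase, had 97.1 and 87.3 against 53.5 and 53.6. Pknox2, a TALE protein related to Meis1, had 25.0 and 27.0 against 52.3 and 51.0 and fell by 0.99, in the direction of Meis1. The summed glial and endothelial markers given above were lower in the same arrays as these receptors and Notch pathway genes, and their part was not tested.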

How the data were processed

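The deposited values are intensity values of 1-colour arrays, per the labels, on a linear scale with array medians near 0.99. Scanner, background correction and normalization by the authors: not given in the sources used here, so how they were scaled and centred stays unknown. No probe sequence or probe genome build was used.

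Names came from GEO's platform annotation, matched by probe ID. Of 35126 probes, 16677 had 1 symbol, 163 several and 18286 none, and 14667 single-symbol probes were read. Late probes were read 5 table rows further on, and a stretch between was left out. All gene IDs of the 165 factor probes matched the RefSeq gene table.

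Missing values and values at or below 0 were set to the 1st percentile of each array's positive values, and log2 was taken. Probes under the 40th percentile of mean log2 intensity were left out, and 21070 of 35117 entered a limma fit with a trended variance prior (version 3.58.1, R 4.3.3). P-values were adjusted over all of these by Benjamini-Hochberg, with a threshold of 0.05 and 2 arrays per group. An exact permutation of 2 against 2 arrays cannot reach 0.05. Fits were tested on simulated data. Tables and plots used pandas 2.3.3 and matplotlib 3.10.9.

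Named genes were called probes of at least 2-fold change without overlap, the brightest probe of each family, a list of ganglion and glial factors, and genes whose probes disagreed. Other probes named in the text were chosen after their values were seen. Members and lists were chosen with earlier results of these data known. The main fit did not pair arrays by number. Deviations of same-numbered arrays correlated at r = 0.000316 across 21070 probes. With 2 arrays per group this cannot tell whether same-numbered arrays share an origin, which the labels do not state. Alternatives covered the limit on dim probes, floor, missing values, normalization, spread estimate, threshold, replicate block, name reading, averaging of probes and each array left out.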

Additional observations from a re-analysis of the deposited data

How the results depend on the processing

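Of 859 values of 54 named factor probes under 17 alternatives, 772 kept their side of the threshold, 56 lost a call and 22 gained one. The other 9 reversed direction with a call in the reported fit, the alternative or both. Changes of sign without a call in either fit are counted among the 772. An example is the brightest Foxo3 probe (log2 change 0.11, and -0.11 with quantile normalization). With the stricter limit at the 60th percentile, 35 factor probes were called (16 higher, 19 lower), with 3153 lower over all probes and 8 related genes lower. With each probe's own spread 23 factor probes (11 higher, 12 lower), 7082 of all probes (4492 higher, 2590 lower) and 12 related genes (6 higher, 6 lower) were called, and 22 named probes lost their calls. They include Foxc1, the dimmer Foxp2 probe and Sox5 among those of at least 2-fold (adjusted p = 0.0512, 0.0608 and 0.0514), and Klf4 (0.263), Nr2f6 (0.260), Id2 (0.219), Nr3c1 (0.210), Nr1d1 (0.194), Gata4 (0.138), Runx1 (0.116) and Pou4f2 (0.116). Quantile and loess normalization each left 7 related genes higher of 11. Reading all names at their own row gave 23 related genes higher and reversed Foxm1 (0.541), Foxo1 (0.387), Foxo3 (0.556), Gata2 (0.881), Hoxb5os (0.183), Nr1d2 (0.269), Nr4a3 (0.798), Pbx2 (-2.04) and Pbx3 (-0.0649), since it pairs late names with other probes. The Foxo3 probe reversed here was the dimmer tested one (-0.10 in the reported fit, not called), not the brightest. For Foxm1 and Pbx2 the reversed probe was the brighter, for Nr1d2 the called and for Foxo1, Gata2 and Nr4a3 the tested one. The early part alone tests fewer probes and gave 26 factor probes (14 higher, 12 lower) and 11 related genes (5 higher, 6 lower). Apart from these constructions, the cause was not tested. Leaving out 1 array gave 47 to 52 factor probes (22 to 26 higher, 23 to 27 lower), 12262 to 12764 of all probes (7809 to 8059 higher, 4311 to 4776 lower) and 20 to 26 related genes (9 to 11 higher, 11 to 15 lower). With the replicate block 53 factor probes, 13711 of all probes and 25 related genes were called, the dimmer Foxp4 probe (adjusted p = 0.0535) being the named probe that lost its call. Dim signal limits the 84 factor probes that were not tested.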
